A study of Mus musculus with 2 samples.

Results

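The genes described here are 10 components of transforming growth factor beta (TGF-beta) signalling: the ligand gene Tgfb1, the receptor genes Tgfbr1, Tgfbr2 and Tgfbr3, and the Smad genes Smad1, Smad2, Smad3, Smad4, Smad6 and Smad7. They were chosen by name, 10 of the 21853 protein-coding genes with an annotated transcription start site (TSS), and all 10 were found in the annotation. Open chromatin at these genes was read from peak lists of ATAC-seq, an assay in which a transposase cuts and tags accessible DNA. The series had 1 group: hematopoietic stem cells, the bone marrow cells that maintain all blood lineages, taken from adult male C57BL/6J mice at an age of 5 to 6 weeks, with no treatment or altered allele named in the labels. There were 2 biological replicates, each a library of 50000 cells. They had separate biosamples under a shared donor identifier, so the labels do not settle whether they came from different animals, and the labels do not name the surface markers used to isolate the cells.

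TGF-beta ligands are secreted in a latent form and, once activated, bring together a type II receptor and a type I receptor, both serine/threonine kinases. The type I receptor phosphorylates receptor-regulated Smads, which join the common Smad4 and enter the nucleus, where they bind DNA together with other transcription factors; the inhibitory Smads act back on the receptors. In bone marrow, TGF-beta is known for holding blood stem cells in quiescence, while the related bone morphogenetic proteins (BMPs) signal through a parallel set of Smads.

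A promoter was taken as 1000 bp either side of any protein-coding TSS of a gene. A peak was distal when its summit lay farther than that from every such TSS in the genome, and a gene received it when its TSS was no farther than 50 kb away or the summit lay inside the gene. Most values come from the thresholded list of each replicate, which held 25141 peaks in replicate 1 and 24495 in replicate 2; the less strict lists held 62918 and 64843. The signal value of a peak is the number the authors' peak caller gave it, and its percentile is its place by signal within its own list. Peak lists carry no read depth: a promoter without a peak was not called at that threshold, which does not show it to be closed. In a bulk library, moderate access in all cells and strong access in a few cannot be told apart. The labelled cell type was checked against markers: 4 of 13 blood stem cell markers (Kit, Cd34, Hlf and Meis1) had a promoter peak in both replicates, below the 41.3% of all protein-coding genes, and 10 of 13 had a shared distal peak. Promoter peaks in both replicates were called at 1 of 5 B cell markers, 1 of 5 T cell markers, 0 of 6 neutrophil and monocyte markers, 0 of 6 erythroid markers and 3 of 6 endothelial and stromal markers. Shared distal peaks were found at 0, 4, 3, 4 and 5 genes of these lists in the same order, against 45.7% of all genes, so the distal count did not set the stem cell markers apart from the T cell, erythroid or endothelial and stromal lists. Ly6a, Procr and Slamf1, which define stem cells in many sorts, had no thresholded promoter peak in either replicate. In the less strict lists 10 of 13 stem cell markers had a promoter peak in both replicates, against 58.0% of all genes. Ly6a and Procr were among them and Slamf1 was not. The other marker lists had 1 of 5, 1 of 5, 3 of 6, 3 of 6 and 5 of 6, in the same order.

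The open DNA that carries most of the findings below is shown first, read from the GRCm38 (mm10) reference. Each stretch reaches 75 bp to either side of the strongest summit of a replicate 1 peak shared with replicate 2. It overlaps no annotated exon, and runs 5′ to 3′ on the strand of the named gene. The first 2 are promoter peaks just upstream of a type I receptor gene and of a receptor-regulated Smad gene, shown because every overlapping promoter peak of these genes held the Sp/Klf motif GGGCGG, which is in capitals. They lie at chr4:47353020-47353170 on the plus strand (Tgfbr1) and chr9:63758072-63758222 on the minus strand (Smad3).
Tgfbr1 promoter: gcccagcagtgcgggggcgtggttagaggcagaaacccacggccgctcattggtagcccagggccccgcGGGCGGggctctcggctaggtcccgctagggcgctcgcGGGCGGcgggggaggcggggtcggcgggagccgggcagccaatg
Smad3 promoter: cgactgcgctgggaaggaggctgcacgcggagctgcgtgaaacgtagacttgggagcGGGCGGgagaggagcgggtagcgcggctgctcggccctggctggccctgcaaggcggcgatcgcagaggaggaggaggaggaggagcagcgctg

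The next 6 are distal peaks, shown because they hold a short Smad-binding element or a Runx motif near the summit, or stand out in signal. Their distances are from the most 5′ TSS of the gene, and an internal TSS can be nearer. Capitals mark the Smad box CAGAC, the GC-rich Smad site GGCGCC, the Runx motif TGTGGTT and the E-box CAGCTG, on whichever strand they occur. In the order printed they lie at chr7:25651433-25651583 (plus strand), chr9:116161022-116161172, chr5:107092209-107092359, chr9:63726728-63726878, chr9:63716236-63716386 and chr9:64050127-64050277 (all on the minus strand).
Tgfb1, 35.5 kb upstream: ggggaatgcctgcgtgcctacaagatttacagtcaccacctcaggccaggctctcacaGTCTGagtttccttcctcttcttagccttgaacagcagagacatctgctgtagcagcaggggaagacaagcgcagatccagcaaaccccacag
Tgfbr2, 14.3 kb downstream of the TSS: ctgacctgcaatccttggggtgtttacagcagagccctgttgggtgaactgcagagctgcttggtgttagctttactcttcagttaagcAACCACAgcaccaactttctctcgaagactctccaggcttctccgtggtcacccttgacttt
Tgfbr3, 197 kb downstream of the most 5′ TSS: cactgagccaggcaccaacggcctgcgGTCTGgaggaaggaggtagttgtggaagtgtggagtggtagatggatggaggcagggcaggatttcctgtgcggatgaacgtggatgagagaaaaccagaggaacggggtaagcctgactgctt
Smad3, 31.2 kb downstream of the TSS: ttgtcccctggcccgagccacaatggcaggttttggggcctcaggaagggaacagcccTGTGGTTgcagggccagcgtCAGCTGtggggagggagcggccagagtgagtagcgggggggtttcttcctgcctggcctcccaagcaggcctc
Smad3, 41.7 kb downstream of the TSS: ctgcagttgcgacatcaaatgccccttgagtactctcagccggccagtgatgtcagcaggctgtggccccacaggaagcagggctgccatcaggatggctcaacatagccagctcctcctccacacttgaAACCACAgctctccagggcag
Smad6, 28.1 kb upstream: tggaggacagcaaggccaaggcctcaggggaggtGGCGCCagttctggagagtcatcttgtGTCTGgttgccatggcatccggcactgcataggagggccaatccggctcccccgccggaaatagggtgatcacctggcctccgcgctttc

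Of the 10 genes, 6 had a promoter peak in both replicates: the type I receptor gene Tgfbr1 and the Smad genes Smad1, Smad2, Smad3, Smad4 and Smad6. The type II receptor gene Tgfbr2 had a promoter peak in replicate 2 only, and Tgfb1, Tgfbr3 and Smad7 had none in either thresholded list. Across all protein-coding genes, 41.3% had a promoter peak in both replicates, 46.0% in replicate 1, 44.1% in replicate 2 and 51.2% in neither. Promoters of the 10 genes are rich in CpG: 9 of 10 fell in the highest tercile of genes by observed-to-expected CpG ratio, where 65.4% of genes had a promoter peak in both replicates, and 6 of those 9 did. Tgfb1 was the exception, in the middle tercile with a ratio of 0.60, while Smad2 (0.97) and Smad4 (0.96) stood at the 99.5 and 99.3 percentiles of all genes. Read against genes of like CpG content, the count of promoter peaks was therefore near its background.

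The promoter peaks that were called were weak for promoter peaks. Over the 6 genes, the strongest promoter signal ranged from 6.98 to 9.95 with a median of 8.55 in replicate 1, and from 6.61 to 9.7 with a median of 7.12 in replicate 2. Over all 9030 genes with a promoter peak in both replicates the medians were 10.3 and 10.9. Each of the 6 was below those medians in both replicates: among these genes they stood between the 8.55 and 45.2 percentiles in replicate 1 and between the 3.44 and 34.1 percentiles in replicate 2.

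**Figure D1:**
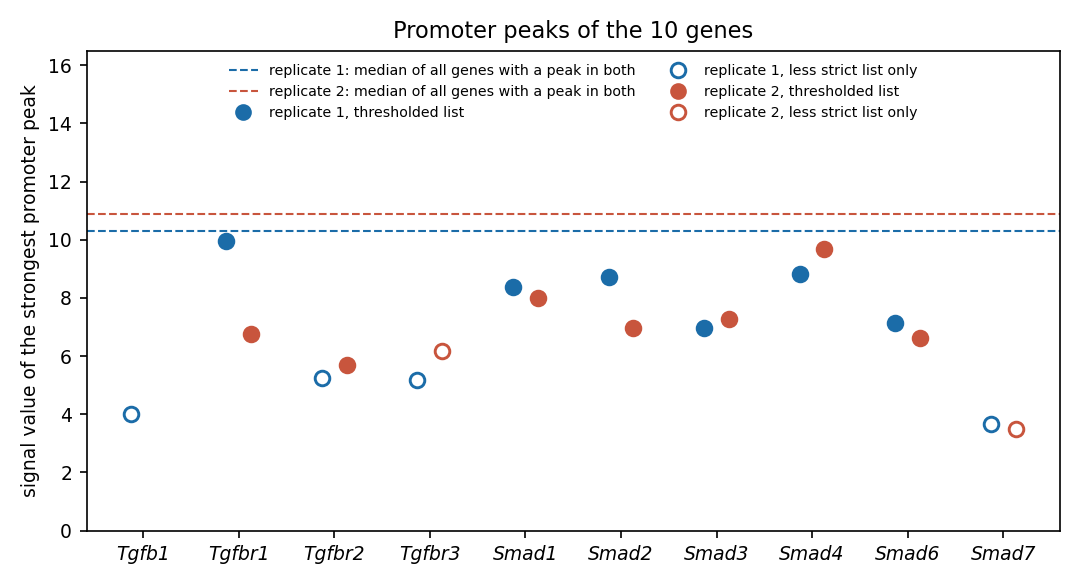
The vertical axis is the signal value of the strongest promoter peak of each gene, with replicate 1 in blue and replicate 2 in red; filled points are in the thresholded list, open points in the less strict list only, and dashed lines are the medians over all 9030 genes with a promoter peak in both replicates (10.3 and 10.9). Every point lies below its replicate's line, Tgfb1 has no point in replicate 2, and Smad7 is lowest among the genes with a point in each replicate (3.68 and 3.51).

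Tgfb1 encodes the ligand that signals through these receptors. Its gene spans chr7:25687002-25705077 on the plus strand, and no peak of either thresholded list lay over its promoter. In the less strict lists replicate 1 had a pair of weak promoter peaks, with signal values of 4.01 at 148 bp upstream and 2.82 at 189 bp downstream of the TSS, and replicate 2 had none. It was the only member without a promoter peak in both less strict lists. A wide replicate 1 peak with 4 summits lay 2.41 kb inside the gene, over an exon, at chr7:25688985-25690040, with a signal of 6.49. Replicate 2 had a less strict peak there of signal 5.94. The nearest upstream promoter was open: that of B9d2, a gene of the ciliary transition zone, had a shared peak 6.26 kb upstream of the Tgfb1 start, with signal values of 8.57 and 8.95.

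Among the receptors, Tgfbr1 (chr4:47353222-47414931, plus strand) encodes the type I kinase that phosphorylates Smad2 and Smad3. Its promoter peak had a signal of 9.95 in replicate 1 and 6.76 in replicate 2, the 68.0 and 8.19 percentiles of their lists, so the replicates disagreed more in rank here than at any other of the 6 genes. The summits lay 127 and 143 bp upstream of the TSS. Tgfbr2 (chr9:116084293-116175360, minus strand) encodes the type II kinase that binds ligand first. Its promoter peak had a signal of 5.69 in replicate 2. In replicate 1 a peak of signal 5.24 lay at the same place in the less strict list, and its −log10 IDR of 1.299 fell just short of the threshold of 1.301, against 1.338 for the replicate 2 peak. The irreproducible discovery rate, or IDR, is lower for peaks whose rank repeats between subsamples of a library, and the absence of Tgfbr2 from the replicate 1 list therefore rested on a small margin. Tgfbr3 (chr5:107106570-107289629, minus strand) encodes betaglycan, a co-receptor that presents ligand to the type II receptor. At its most 5′ promoter only less strict peaks were called, with signals of 5.18 in replicate 1 and 5.49 in replicate 2. Replicate 2 had a further less strict peak of signal 6.18 at an internal start of Tgfbr3.

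Smad1 (chr8:79338395-79399518, minus strand) encodes a receptor-regulated Smad of the BMP branch, and Smad2 and Smad3 those of the TGF-beta and activin branch. The Smad1 promoter peak had a signal of 8.38 in replicate 1 and 7.99 in replicate 2, with summits 22 and 31 bp downstream of the TSS. That of Smad2 had a signal of 8.73 in replicate 1 and 6.96 in replicate 2, with summits 311 and 305 bp upstream. At Smad3 (chr9:63646767-63757994, minus strand) the values were 6.98 and 7.28, with summits 153 and 148 bp upstream. The 3 receptor-regulated Smad genes among the members thus had a peak at the same position in both replicates, with summits shifted by less than 10 bp. Smad3 had a further replicate 2 peak of signal 5.46 that reached into the promoter window from a summit 1.29 kb upstream.

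Smad4 encodes the common partner that receptor-regulated Smads of both branches need. Its promoter peak had a signal of 8.81 in replicate 1 and 9.7 in replicate 2, the 53.5 and 50.7 percentiles of their lists, and it was the only one of the 6 that stayed above the median of both lists. Smad6 (chr9:63953076-64022059, minus strand) encodes an inhibitory Smad that acts mainly on BMP signalling. Its promoter counted as open in both replicates through different peaks: replicate 1 had a peak of signal 7.13 with its summit 933 bp upstream, and replicate 2 a peak of signal 6.61 with its summit 4 bp upstream of the TSS. Such peaks without overlap occurred in 37 of the 9030 genes. In the less strict lists both replicates had both peaks, with signals of 5.35 for replicate 1 at the TSS and 5.22 for replicate 2 at the upstream site. Smad7 encodes the inhibitory Smad that turns TGF-beta receptors over with the help of ubiquitin ligases. Its promoter had less strict peaks only, with signals of 3.68 and 3.51, the weakest pair among the 9 members with less strict promoter peaks in both replicates. Across all genes 58.0% had promoter peaks in both less strict lists.

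Every one of the 10 genes had at least 1 distal peak shared by the replicates, against 45.7% of all protein-coding genes. The genes with no promoter peak in the thresholded lists were among them: Smad7 had 2 shared distal peaks, and Tgfb1 and Tgfbr3 had 1 each. Tgfbr2, Smad2, Smad3, Smad4 and Smad7 had 2 each and the other 5 genes had 1, so 5 of 10 had at least 2, against 19.5% of all genes. The 10 genes shared no distal peak among themselves, which gave 15 distinct peaks, a median of 1.5 per gene against 0 over all genes and a mean of 1.5 against 0.788. Their searched windows were longer, with a median of 123 kb against 100.4 kb; per 100 kb of window the median was 1.02 peaks against 0, and the mean over all genes was 0.648. Of the 15 peaks 11 lay in introns and 4 between genes, and 9 lay inside the member itself. For 13 of the 15 the nearest protein-coding TSS was the member's own.

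**Figure D2:**
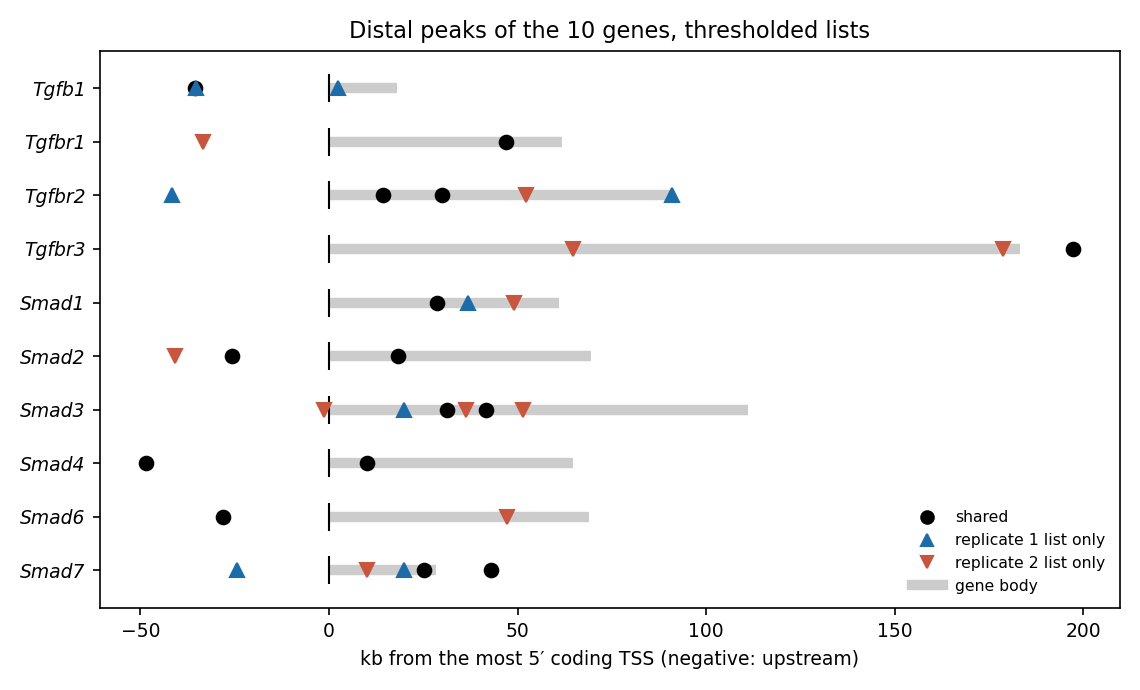
The horizontal axis is the distance in kb from the most 5′ coding TSS of each gene, negative upstream; grey bars are gene bodies, black circles the 15 peaks shared by the replicates, and triangles the peaks in the thresholded list of replicate 1 (8, pointing up) or replicate 2 (11, pointing down) only. Smad3 and Tgfbr2 carry several peaks along their long introns, and each gene has at least 1 black circle.

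The shared distal peak of Tgfb1, at chr7:25651238-25651673, had the highest replicate 2 signal of the 15, with values of 10.4 in replicate 1 and 12.4 in replicate 2. It lay 35.5 kb upstream of Tgfb1 in an intron of Bckdha, a gene of branched-chain amino acid breakdown, whose TSS was nearer at 7.47 kb. Which gene this region acts on cannot be read from these lists.

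At the receptor genes, the Tgfbr1 peak at chr4:47399904-47400177 lay in an intron 46.8 kb downstream of the most 5′ TSS, with signal values of 8.53 and 9.48. An internal Tgfbr1 TSS was nearer, at 13.8 kb. Tgfbr2 had its peaks in introns, 14.3 kb downstream of the TSS at chr9:116160807-116161231 with values of 8.52 and 9.57, and 29.9 kb downstream at chr9:116145236-116145602 with values of 6.94 and 7.67. The Tgfbr3 peak, at chr5:107092022-107092604, lay beyond the 3′ end of the gene with values of 6.85 and 8.49. It was 197 kb from the most 5′ TSS but 40.6 kb from an internal Tgfbr3 TSS, through which it was assigned. All 4 peaks of the receptor genes were higher in signal in replicate 2, as were 77.1% of all shared distal peaks. By percentile only that of Tgfbr3 was higher in replicate 2. At Tgfbr2 both distal peaks exceeded the promoter peak in the replicate 2 list, where the promoter stood at the 2.30 percentile and the distal peaks at the 49.0 and 18.3 percentiles.

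Among the receptor-regulated Smads, Smad1 had the weakest of the 15 peaks, in an intron 28.7 kb downstream of the TSS at chr8:79370634-79370941, with signal values of 6.32 in replicate 1 and 6.19 in replicate 2. Smad3 had a pair of intronic peaks. The peak 31.2 kb downstream of the most 5′ TSS, at chr9:63726378-63727031, had values of 10.3 and 9.81, and that 41.7 kb downstream, at chr9:63716045-63716477, had values of 8.59 and 9.57. Counted from the nearest Smad3 TSS, an internal one, these peaks lay 14.8 and 4.34 kb away. Each exceeded the Smad3 promoter peak in both replicates. The Smad6 peak, 28.1 kb upstream at chr9:64049879-64050340, differed most between the replicates, with 7.85 in replicate 1 (37.9 percentile) and 11.1 in replicate 2 (69.6 percentile).

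The other Smad genes lie on chromosome 18. Smad2 (76241580 to 76310963) had an intergenic peak 25.6 kb upstream with signal values of 9.76 and 11.4, and an intronic peak 18.3 kb downstream of its most 5′ TSS with 10.9 and 11.1. The latter lay 1.26 kb from an internal Smad2 TSS, close to the limit of a promoter as defined here. Smad4 (73639009 to 73703780) had an intronic peak 10.2 kb downstream of the TSS with values of 7.56 and 7.5. Its other peak, 48.4 kb upstream with 7.56 and 9.16, lay in an intron of Elac1, a tRNA-processing gene whose TSS was 2.29 kb away. Smad7 (75367529 to 75395935) had an intronic peak 25.1 kb downstream with values of 8.43 and 9.83, and a peak past its 3′ end, 42.8 kb downstream, with values of 9.0 and 10.03. At Smad7 both distal peaks thus stood near the middle of their lists by signal, at the 47.9 to 55.9 percentiles, while its promoter was missing from both thresholded lists.

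At these 15 peaks, 13 pairs had summits within 25 bp, and the same share over all shared distal peaks was not counted. Of the other pairs, that of Smad4 at Elac1 was shifted by 27 bp and that of Tgfbr2 at 29.9 kb by a longer distance. Signal was higher in replicate 2 at 12 of the 15 peaks (80.0%), as it was at 77.1% of all 11202 shared distal peaks, and the percentile was higher in replicate 2 at 6 of the 15 (40%, against 51.1%). The medians over the 15 peaks were 8.52 and 9.57, against 8.71 and 9.90 over all shared distal peaks, so these distal peaks were near the medians of their class. The promoter comparison above used the strongest peak of each gene and is not of the same kind. A further 8 distal peaks of the members were in the thresholded list of replicate 1 only and 11 in that of replicate 2 only. Of these 19, 18 lay on a less strict peak of the other replicate, and the same share over all genes was not counted. Smad3 had 4 of the 19 single-replicate peaks, Tgfbr2 and Smad7 had 3 each, and Smad4 had none. Of the members' replicate 1 distal peaks 65.2% (15 of 23) were shared, against 73.5% of all replicate 1 distal peaks, and of their replicate 2 distal peaks 57.7% (15 of 26), against 73.3%. In the less strict lists the members' shares were above those of all distal peaks, at 81.7% against 77.2% in replicate 1 and 77.5% against 74.3% in replicate 2.

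**Figure D3:**
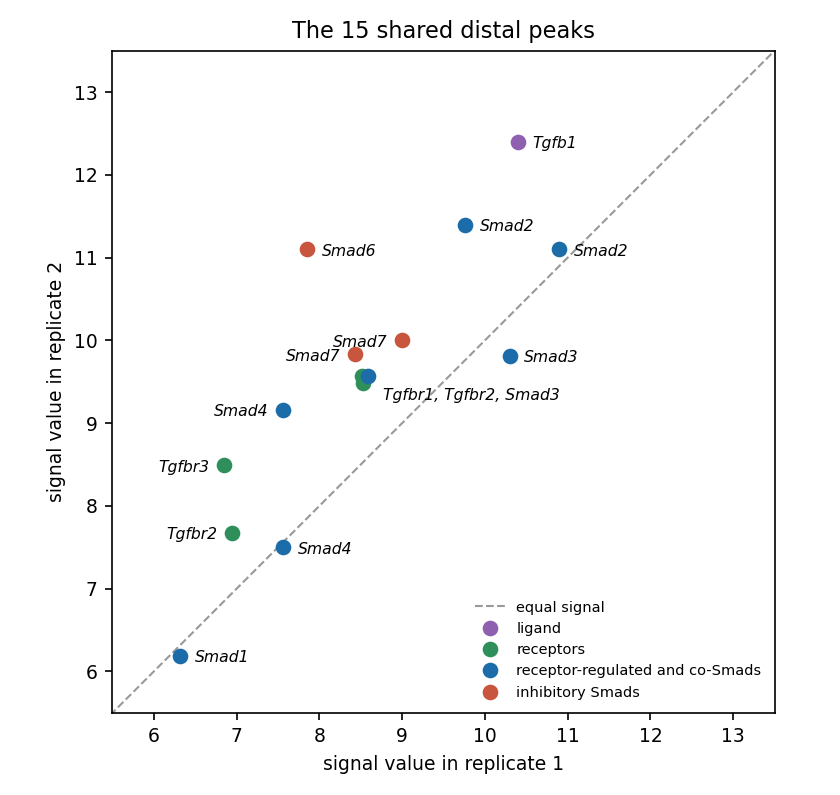
Each point is 1 of the 15 shared distal peaks, with its signal value in replicate 1 on the horizontal axis and in replicate 2 on the vertical axis, coloured by the role of the gene; the dashed line marks equal values. The 12 peaks with more signal in replicate 2 lie above the line, Tgfb1 is the highest point (10.4 and 12.4), Smad1 the lowest (6.32 and 6.19), and Smad6 lies farthest above the line (7.85 and 11.1).

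In the less strict lists the 10 genes had 67 shared distal peaks, a median of 6.5 per gene against 2.00 over all genes, and again all 10 had at least 1, against 75.6% of all genes. Smad3 had 11, of which 9 lay in its introns, a number reached by 1.39% of all genes; its window was long, and its density of 5.75 per 100 kb was reached by 6.86%. Smad7, a short gene, had 9, or 8.78 per 100 kb of window, a density reached by 0.650% of genes. Tgfb1, also short, had 7, or 7.0 per 100 kb, reached by 2.71% of genes, but none of the 7 other than that inside the gene had the Tgfb1 TSS as the nearest. Tgfbr2 had 8, Tgfbr3 had 7 and Smad1 had 6. Tgfbr1, Smad2 and Smad4 had 5 each, and Smad6 had 4. The densities of these genes were less unusual. Those of Tgfbr2, Smad1 and Smad2 were reached by 7.04%, 7.52% and 13.9% of all genes. Those of Smad4, Tgfbr1 and Smad6 were reached by 19.0%, 21.3% and 23.1%. Per 100 kb of window Smad7 was highest of the 10 genes and Tgfbr3 lowest, at 2.73, reached by 34.9% of all genes.

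Motifs were searched on both strands within 100 bp to either side of the replicate 1 summit of each shared peak. The Smad box CAGAC was found in 9 of the 15 distal windows (60%) against 44.6% of all shared distal peaks; within 50 bp of the summit it was found in 8 (53.3%) against 26.2%. The windows were those of Tgfb1, Tgfbr3, Smad6, 1 of the Smad2 pair, both of Smad4, both of Smad7 and, in the wider window only, the Tgfbr2 peak at 14.3 kb. In the printed sequences of Tgfb1 and Smad6 the box lies 13 to 17 and 10 to 14 bp before the summit. The palindrome GTCTAGAC was in 0 of the 15 windows and in 0.250% of all, and the GC-rich site GGCGCC only in the Smad6 window (6.67% against 4.01%). The Runx motif TGTGGTT was in 5 windows (33.3% against 15.7%), those of Tgfbr2 at 14.3 kb, both of Smad3, 1 of Smad2 and 1 of Smad7; within 50 bp of the summit it was in 3 (20% against 10.3%). At the Smad3 peak 31.2 kb downstream it precedes the E-box CAGCTG, which is also a match to the wider E-box CANNTG. The E-box CAGCTG was in 2 windows, at Smad1 and Smad3 (13.3% against 18.1%), both within 50 bp of the summit (13.3% against 10.2%). The AP-1 motif TGANTCA was in 3 windows (20% against 10.5%), at Smad2, Smad4 and Smad7, but within 50 bp of the summit in 1, at Smad4 (6.67% against 6.05%). The E-box CANNTG was in 11 (73.3% against 69.0%). The Gata motif AGATAAG (3.79% of all), the ETS motif CCGGAAGT (0.848%) and the PU.1 motif AGAGGAAGT (5.70%) were in 0 of the 15. A match is a description of letters, and with 15 windows a single peak moves a share by 6.67 percentage points.

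At promoters, the Sp/Klf motif GGGCGG was in all 5 windows of overlapping promoter peaks, those of Tgfbr1, Smad1, Smad2, Smad3 and Smad4, against 60.3% of 8525 promoter windows, and in all 5 within 50 bp of the summit against 42.8%. The GC content of the 5 windows, with a median of 72.1% and a range of 70.6 to 74.6%, was above the median of 63.2% over all promoter windows, and its part in the motif count was not tested. The Smad box was in the Smad2 window alone (20% against 36.1%). The Runx, ETS, Creb (TGACGTCA), Nrf1 (GCGCATGCG) and Yy1 (AAGATGGCG) motifs were in 0 of 5. Over all promoter windows their shares were also low, at 2.94%, 7.67%, 3.57%, 2.69% and 2.65% in that order, so 0 of 5 sets these promoters apart for none of them.

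The rest of the pathway was read from lists of related genes. Among 13 other ligands of the superfamily, 2 had a promoter peak in both replicates: Inhba, an activin subunit (12.2 and 13.4), and Tgfb3 (8.67 and 9.96). Tgfb2 and the inhibin and activin subunits Inha and Inhbb had none in either thresholded list, and 4 of the 13 had a shared distal peak. The count for ligand genes was thus lower than the background of 41.3% would give. Among 11 genes that store or activate latent TGF-beta, 3 had a promoter peak in both replicates: Nrros, which anchors latent TGF-beta on myeloid cells (9.69 and 13.2), and the integrin genes Itgb8 (12.4 and 10.1) and Itgav (10.2 and 11.3), whose products pair to release it. The latent TGF-beta binding protein genes Ltbp2, Ltbp3 and Ltbp4 had no thresholded promoter peak, although Ltbp2 and Ltbp4 had peaks in both less strict lists. Of the 11 genes 7 had a shared distal peak.

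Among 13 other receptors and co-receptors, 5 had a promoter peak in both replicates: Acvr1c (13.3 and 16.1), Bmpr1b (8.50 and 12.3), the pseudoreceptor gene Bambi (10.9 and 9.51), Acvr2b (7.65 and 6.95) and the BMP co-receptor gene Rgmb (7.57 and 6.87). The activin and BMP receptor genes Acvr1, Acvr2a and Acvrl1 had none in either thresholded list, although each had peaks in both less strict lists. Of the 13 genes 10 had a shared distal peak. Neither of the other Smad genes, Smad5 and Smad9 of the BMP branch, had a thresholded promoter peak, although Smad5 had peaks in both less strict lists. Of the receptor-regulated Smads of the BMP branch, Smad1 thus had promoter peaks in both thresholded lists and Smad5 and Smad9 did not.

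Among 16 adaptors and regulators of Smads, 9 had a promoter peak in both replicates, led by the ubiquitin ligase genes Rnf111 (12.1 and 14.5) and Nedd4l (10.8 and 12.2), Strap (10.9 and 11.6), the corepressor gene Ski (10.5 and 9.53) and the ubiquitin ligase gene Smurf2 (9.44 and 8.98). Zfyve9, which brings Smad2 and Smad3 to the receptor, Pmepa1 and Tgif1 had none in either thresholded list. All 16 had peaks in both less strict lists, against 58.0% of all genes. Across all genes, 41.3% had a promoter peak in both thresholded lists. In the highest CpG tercile, which held all of the 16 but Dab2, the share was 65.4%. Among 9 nuclear partners of Smads, 5 had a promoter peak in both replicates: Sp1 (9.37 and 9.80), the acetyltransferase gene Ep300 (9.30 and 9.60), Fos (5.74 and 6.99), Runx1 (4.97 and 5.27) and Jun (4.78 and 5.45). Foxh1, Crebbp and Zeb1 had no thresholded promoter peak, although Crebbp and Zeb1 had peaks in both less strict lists. Runx1 had a weak promoter and 7 shared distal peaks, more than any of the 10 genes.

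Among 14 genes known to respond to TGF-beta or BMP, 6 had a promoter peak in both replicates, near the background of 41.3%. They included the inhibitors of basic helix-loop-helix factors Id2 (9.55 and 9.31) and Id3 (7.14 and 8.01), Klf10 (6.61 and 6.51), Skil (6.31 and 6.23) and Junb (6.11 and 6.52). Ccn2 and Tgfbi, matrix-linked targets in many adherent cells, had no thresholded promoter peak in either replicate. Both had promoter peaks in both less strict lists, as did 13 of the 14 genes, against 58.0% of all genes. Of the 14 genes 10 had a shared distal peak, with the same median of 1.5 per gene as the 10 genes described here; Ltbp3, Skil and Pmepa1 stand in this list and in another.

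**Figure D4:**
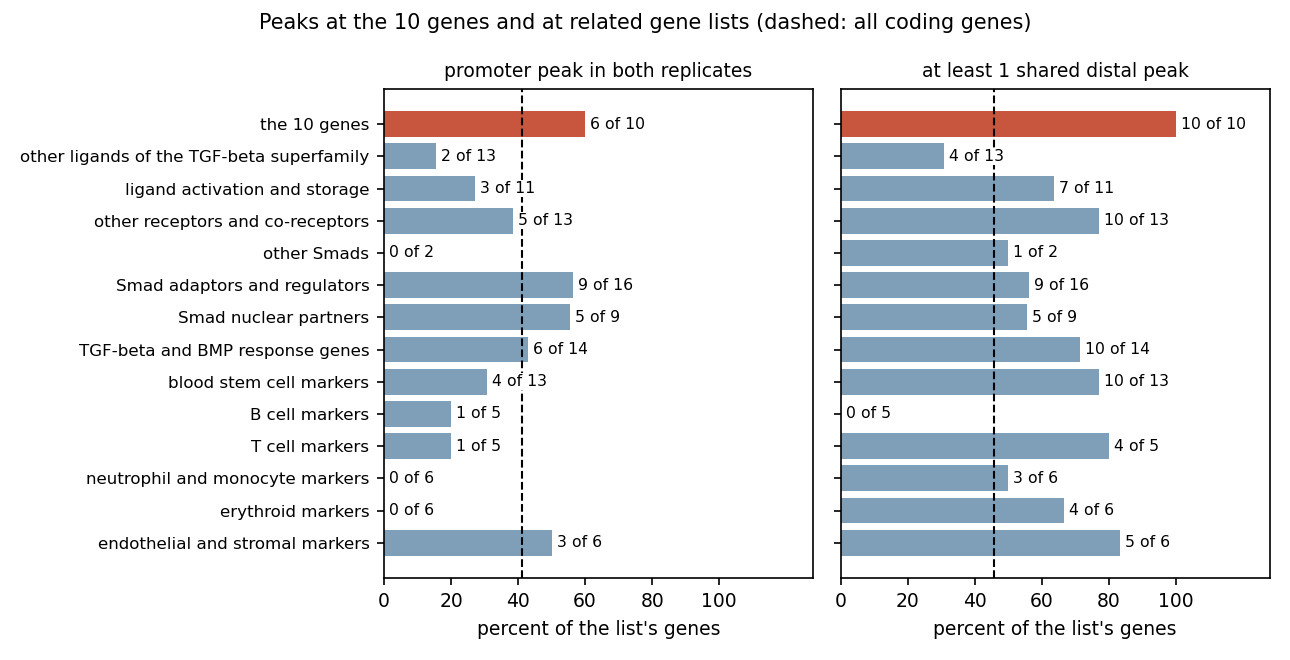
Bars give the percent of genes in each list with a promoter peak in both replicates (left) or at least 1 shared distal peak (right), with counts beside them and the share of all protein-coding genes as a dashed line (41.3% and 45.7%). The 10 genes described here, in red, have 6 of 10 on the left and 10 of 10 on the right; other ligands are lowest among the pathway lists with more than 2 genes, with 2 of 13 and 4 of 13.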

How the data were processed

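ATAC-seq peak lists of 2 biological replicates of mouse hematopoietic stem cells were used, in the mm10 assembly, per the labels; chromosome lengths of the GRCm38.p6 reference exceeded every peak end. The signal value of each peak was assigned by the authors' peak caller, and the deposited lists also give −log10 p-values, −log10 q-values and, in the ranked lists, the −log10 IDR. Every peak of a deposited thresholded list had a −log10 IDR of at least 1.30 in the ranked list, at 2 decimals. Not given in the sources used here are the aligner, the peak caller and any shift of read ends for the transposase. Sequencers are named for replicate 1 only, in its label.

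Intervals listed under several summits counted as 1 peak, placed at the strongest. A peak was shared when it overlapped a peak of the other replicate by at least 1 bp, and shared peaks were counted and placed by replicate 1. TSSs were those of protein-coding transcripts in GENCODE vM21, and CpG ratios were computed over promoter windows. Motifs were matched exactly; a self-test on planted motifs and simulated peaks was passed. With 1 group of 2 replicates no test between groups exists, so counts stand beside the same count over all genes. Python 3.11.15, pandas 2.3.3, numpy 2.4.6 and pysam 0.24.0 were used.

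The members, the other gene lists, the motifs and the alternatives were chosen with earlier results of these data known. All 10 members were named; of each other list, up to 5 genes with a promoter peak in both replicates, by mean signal percentile, and up to the first 3 listed genes with none; and for each distal peak the gene of the nearest TSS. B9d2 was named after its values were seen, and 1 gene under this rule is not reported here. Alternatives were other lists, overlap rules, promoter and distal windows, TSS sets and single replicates.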

Additional observations from a re-analysis of the deposited data

How the results depend on the processing

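The count of members with a promoter peak in both replicates (6) stayed between 5 and 9 under 10 of its 11 alternatives, with 9 in the less strict lists (58.0% of all genes), 8 in the series-level thresholded and conservative lists (51.9% and 54.7%), and 5 with a 500 bp promoter (40% of all genes) or when the peaks of the replicates had to overlap (41.2%), which removed Smad6. With the strongest 50% of each list it was 1, Smad4, against 25.6% of all genes. The 15 shared distal peaks became 67 in the less strict lists, 48 in the series-level thresholded list, 56 in the series-level conservative list and 5 with the strongest 50%; they were 9 within 25 kb and 25 within 100 kb. Longer lists and wider windows hold more peaks by construction. Replicate 1 alone gave 23 distal peaks and 6 open promoters, and replicate 2 alone gave 26 and 7. Each alone gave a distal peak at all 10 members. All 10 members had a distal peak under 12 of the 15 alternatives. Under those the share of all genes ran from 43.0% with a 2000 bp promoter to 75.6% in the less strict lists. The count was 4 with the strongest 50% (23.9% of all genes) and 7 within 25 kb (31.8%). It was 9 when the nearest TSS had to be the member's (25.3%), which removed Tgfb1. The share of replicate 1 distal peaks found in replicate 2 was 65.2% and rose to 81.7% in the less strict lists, which turned it from below to above that of all distal peaks (73.5% and 77.2%). The overlap of 50% for that share, its less strict lists and the motif window of 50 bp either side were chosen after seeing the data. No paired analysis was possible because the series has 1 group. Peak lists carry no read counts, so depth and its precision are unknown.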
